A study of Mus musculus with 20 samples.

Results

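The genes described here are the 5 that form the core of necroptosis signalling in the mouse, Zbp1, Ripk1, Ripk3, Mlkl and Casp8. They were chosen by name for their place in this pathway, with earlier results of these data known. All 5 were among the 12701 genes of the proximal colon (PC) count table. The libraries came from C57BL/6 mice bred in-house and fed from weaning on TWD (Total Western Diet), which is formulated to resemble the nutrient intake of people in the United States, for 6 weeks. They then received TWD with 0, 2, 5 or 10% resistant potato starch (RPS, raw starch that reaches the large bowel undigested) for a further 3 weeks. Each diet had 5 PC libraries, every library came from whole tissue of the wall of the gut just past the cecum, and all 4 diets had TWD as their base. The 0% RPS group was therefore a Western diet control and not a group on standard chow. Library totals lay between 20581013 and 35083751 counts with a median of 26354926. Replicate numbers were given in accession order and only name the libraries.

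Zbp1 encodes an intracellular sensor that binds Z-form nucleic acid and is itself a classic interferon-stimulated gene. Sensors and death receptors pass their signal through RIP homotypic interaction motifs to the kinase RIPK3, which phosphorylates MLKL. Phosphorylated MLKL oligomerises and breaches the plasma membrane, and the cell dies by lysis, which is necroptosis. RIPK1 is a scaffold and kinase that can start or restrain the same route, and caspase-8 cleaves RIPK1 and RIPK3 and so turns the outcome towards apoptosis or survival. In the intestinal epithelium, mice that lack epithelial caspase-8 or its adaptor FADD are known for loss of Paneth cells and for ileitis or colitis that depends on RIPK3 and MLKL.

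The bases around the annotated start sites are shown for 3 of the genes, because Zbp1 and Ripk3 rose with RPS and because Mlkl and Zbp1 held letters of the type bound by interferon-activated factors. Each run is 300 bases of GRCm39 written 5′ to 3′ on the strand of the gene, from 250 bases before the GENCODE canonical start site to 50 bases after it. Capitals mark every match to GAAANNGAAA, the core of an interferon-stimulated response element (ISRE), or to TTCNNNGAA, the core of a gamma-activated site (GAS), on either strand.
Zbp1, chr2:173060675-173060974, minus strand: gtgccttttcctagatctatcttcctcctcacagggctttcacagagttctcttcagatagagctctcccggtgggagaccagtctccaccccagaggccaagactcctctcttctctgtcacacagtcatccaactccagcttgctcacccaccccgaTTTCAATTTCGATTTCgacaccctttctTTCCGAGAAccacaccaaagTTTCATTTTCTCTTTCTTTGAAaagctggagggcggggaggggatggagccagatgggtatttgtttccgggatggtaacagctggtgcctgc
Mlkl, chr8:112064819-112065118, minus strand: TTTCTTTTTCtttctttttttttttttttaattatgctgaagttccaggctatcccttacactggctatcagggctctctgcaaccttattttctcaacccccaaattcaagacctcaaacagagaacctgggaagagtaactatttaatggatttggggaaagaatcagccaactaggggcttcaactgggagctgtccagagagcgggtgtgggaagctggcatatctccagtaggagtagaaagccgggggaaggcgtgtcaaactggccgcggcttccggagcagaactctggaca
Ripk3, chr14:56026275-56026574, minus strand: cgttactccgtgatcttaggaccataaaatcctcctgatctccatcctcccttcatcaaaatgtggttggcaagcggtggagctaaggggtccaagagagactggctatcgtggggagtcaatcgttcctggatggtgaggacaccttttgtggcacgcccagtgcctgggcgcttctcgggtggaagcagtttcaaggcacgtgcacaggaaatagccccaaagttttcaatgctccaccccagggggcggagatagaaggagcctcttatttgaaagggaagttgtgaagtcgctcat
The Zbp1 window held 4 ISRE-type matches in 2 overlapping pairs. With the base just before the start site as -1, the upstream pair ran from -91 to -82 and from -85 to -76, and the downstream pair from -43 to -34 and from -37 to -28. It also held 2 GAS-type matches, from -63 to -55 and from -30 to -22, and the second of these overlapped the last ISRE-type match. The Mlkl window held 1 ISRE-type match at its far end, from -250 to -241, inside a run rich in T. The windows of Ripk1 (chr13:34186096-34186395, plus strand), Ripk3 and Casp8 (chr1:58834127-58834426, plus strand) held neither run of letters. Of 12682 windows of the same length around the genes of the table, 3.44% held at least 1 ISRE-type match and 7.26% at least 1 GAS-type match. As many ISRE-type matches as in Zbp1 occurred in 3 of them, Zbp1 included. These matches describe letters and were not measured as bound sites in this tissue.

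**Figure D1:**
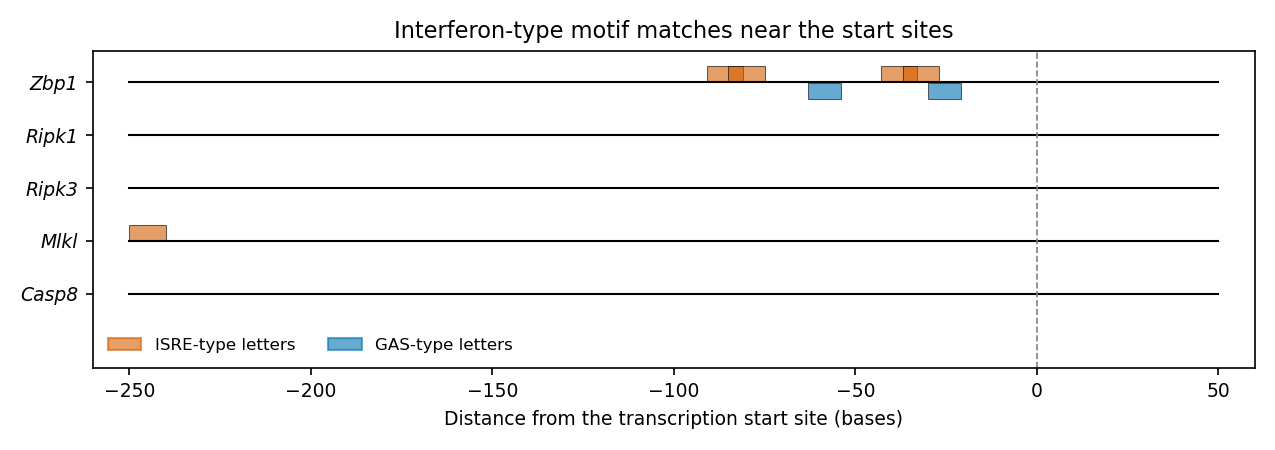
Positions of ISRE-type (orange, above the line) and GAS-type (blue, below the line) matches from 250 bases before to 50 bases after the start sites of the 5 genes, in bases from the start site (dashed). Zbp1 held 4 ISRE-type and 2 GAS-type matches, Mlkl held 1 ISRE-type match and the other genes held none.

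Zbp1 (ENSMUSG00000027514) lies at chr2:173033815-173060724 on the minus strand of GRCm39, and GENCODE places no other gene over it. Its normalised counts, which are the raw counts divided by the DESeq2 size factor of the library, were 133, 297, 255, 255 and 210 in the 5 libraries at 0% RPS. At 2% RPS they were 307, 364, 266, 227 and 562. At 5% RPS they were 575, 532, 719.1, 275 and 336, and at 10% RPS 252, 436, 515, 629 and 552. The groups overlapped: 4 of 5 libraries at both 5% and 10% RPS lay above the highest 0% library, while 1 library of each lay among the controls. The means were 230 ± 62.4 (SD, n = 5) at 0%, 345 ± 131 at 2%, 487 ± 181 at 5% and 477 ± 143 at 10% RPS.

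Ripk3 (ENSMUSG00000022221), the kinase that acts on MLKL, lies at chr14:56022452-56026324 on the minus strand, and its exons overlap no other annotated exon. Its normalised counts at 0% RPS were 869, 767, 830, 700 and 575. They were 838, 853, 766, 755 and 1054 at 2% RPS and 1071, 1204, 1259, 778 and 785 at 5% RPS. At 10% RPS they were 1047, 1059, 1065, 1000 and 1468. Every library at 10% RPS lay above every library at 0% RPS, and replicate 5 at 10% RPS stood far above the other 4. The 5% libraries split into 3 above the controls and 2 within their range. The means were 748.35 ± 116, 853 ± 120, 1019 ± 228 and 1128 ± 192 (SD, n = 5) at 0, 2, 5 and 10% RPS.

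Mlkl (ENSMUSG00000012519), which encodes the pore-forming effector, lies at chr8:112036296-112065168 on the minus strand and shares exonic sequence with Gm63800 on the opposite strand. Its normalised counts were 545, 354, 634, 509 and 501 at 0% RPS and 566, 561, 608, 422 and 733 at 2% RPS. They were 707.1, 824, 751, 541 and 569 at 5% RPS and 577, 628, 635, 682 and 705.5 at 10% RPS. At both higher levels 3 of 5 libraries lay above the highest control and the remaining 2 lay inside the control range. The 10% libraries lay closer together than those of any other diet (577 to 705.5).

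Casp8 (ENSMUSG00000026029), the protease that holds necroptosis in check, lies at chr1:58834375-58886665 on the plus strand. Its normalised counts were 3313, 3387, 3675, 2659 and 2418 at 0% RPS and 3006, 2978, 3800, 2778 and 3537 at 2% RPS. They were 3328, 4126, 4159, 3884 and 2977 at 5% RPS and 4051, 3885, 3855, 3625 and 4532 at 10% RPS. At 10% RPS 4 of 5 libraries were above all controls, and the fifth was just below the highest control.

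Ripk1 (ENSMUSG00000021408), the scaffold kinase, lies at chr13:34186141-34221130 on the plus strand and overlaps exons of Serpinb6a on the opposite strand and of Gm17084. Its normalised counts ran from 1334 to 1513 at 0%, from 1376 to 1575 at 2%, from 1372 to 1611 at 5% and from 1354 to 1630 at 10% RPS. The 4 ranges overlapped almost fully. Over all 20 libraries the highest Ripk1 value was 1.22 times the lowest, while the same ratio was 5.42 for Zbp1, 2.55 for Ripk3, 2.33 for Mlkl and 1.87 for Casp8. The coefficient of variation within a diet was 5.31 to 6.91% for Ripk1 and 27.1 to 38.1% for Zbp1, so that Zbp1 was the gene whose mice differed most within a diet as well as between diets.

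**Figure D2:**
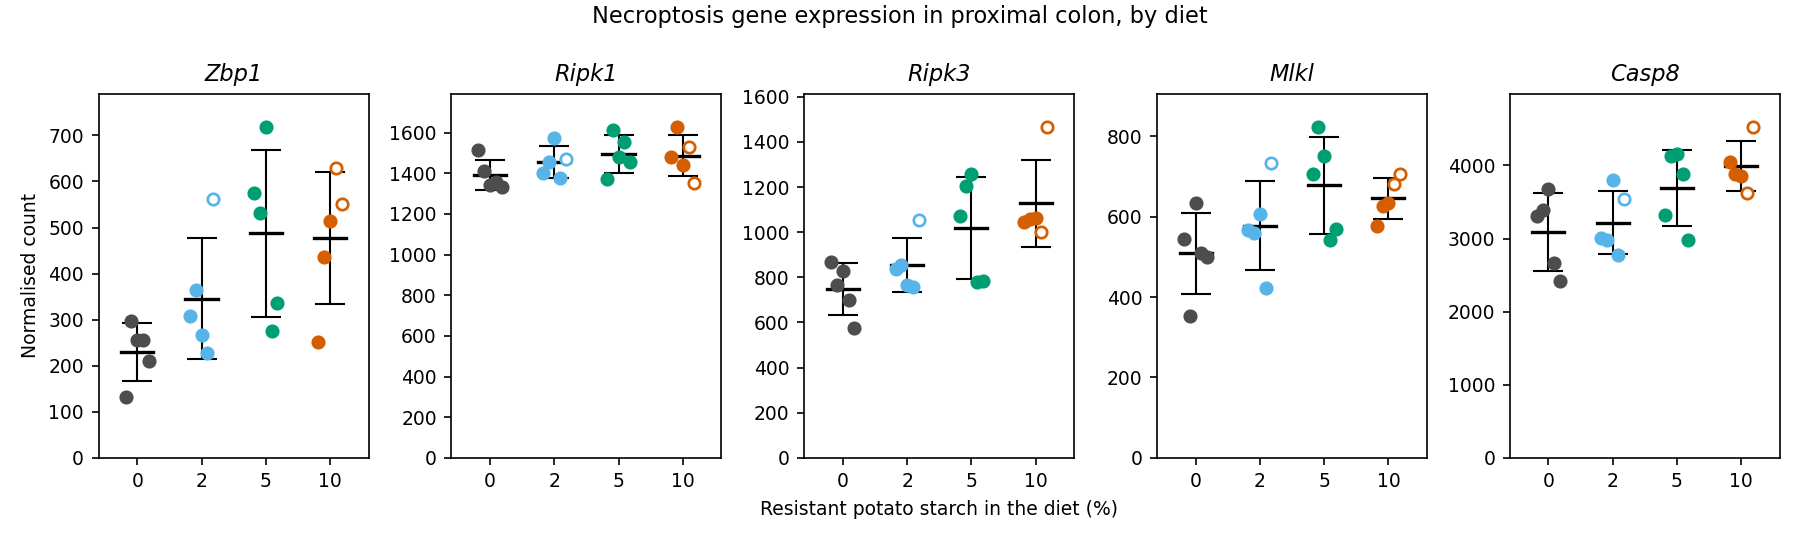
Normalised counts of the 5 genes in each of the 20 PC libraries by percentage of RPS, each panel with its own axis from 0. Points are libraries, bars the mean ± SD (n = 5 per diet), and open points the 3 libraries whose label numbers fall outside the run of the others. Zbp1 means went from 230 to 477 and Ripk3 means from 748.35 to 1128 between 0 and 10% RPS, while the Ripk1 points stayed between 1334 and 1630.

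Between genes, levels can only be set side by side per length, here as normalised counts per kb of the canonical transcript averaged over the 20 libraries. On that scale Casp8 was the most abundant with a level of 1276, followed by Ripk3 with 495, Ripk1 with 216, Zbp1 with 193 and Mlkl with 144. On this scale Ripk1 and Zbp1 changed places with diet. The canonical transcripts of Zbp1 and Ripk1 are 1997 and 6736 bases, and their joined annotated exons 4293 and 10993 bases. The order of Zbp1, Ripk1 and Mlkl therefore depends on the length chosen, and which transcripts were present was not measured. At 0% RPS the level per kb was 115 ± 31.2 (SD, n = 5) for Zbp1 and 207 ± 11.01 for Ripk1, and at 10% RPS it was 239 ± 71.8 and 221 ± 15.3, a gap smaller than the SD of Zbp1. The levels of Zbp1 and Mlkl at 0% RPS also differed by less than their SD (115 ± 31.2 and 122 ± 24.3).

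Each starch level was then compared with 0% RPS in DESeq2 fits over all genes. Following the criterion of the study, a gene counted as called when it was at least 1.5-fold apart and its p, adjusted by the Benjamini-Hochberg method, was no higher than 0.05. The comparisons share the same 5 libraries at 0% RPS, so they are not independent of each other. At 2% RPS none of the 5 genes was called, where 0.0239% of all genes were called higher, and edgeR called none of them either. At an unadjusted p under 0.05 there was 1 gene, Zbp1, where 5.26% of all genes were higher by that measure. The Zbp1 estimate at 2% RPS was 1.501-fold (95% interval 1.02 to 2.22, adjusted p = 0.544 in DESeq2). For the other 4 genes the estimates ran from 1.04-fold for Casp8 to 1.14-fold for Ripk3, with adjusted p from 0.741 to 0.919 in DESeq2.

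At 5% RPS Zbp1 was called, 2.12-fold higher (log2 fold change 1.08, SE 0.29, adjusted p = 0.0205 in DESeq2), and it was 1 of 5 genes where 0.334% of all genes were called higher. Ripk3 had an estimate of 1.36-fold (adjusted p = 0.0982), Mlkl of 1.33-fold (adjusted p = 0.129) and Casp8 of 1.20-fold (adjusted p = 0.261), and these did not pass. Their 95% intervals were 1.11 to 1.68, 1.08 to 1.64 and 1.01 to 1.41, so that increases of up to about those upper bounds remained possible. Without the fold threshold Zbp1 was still the only 1 of the 5 that passed, beside 1.33% of all genes.

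The Zbp1 call at 5% RPS did not hold in every fit. The edgeR quasi-likelihood test gave the same size (log2 fold change 1.08) with an adjusted p of 0.126 and called none of the 5 genes. The DESeq2 adjusted p rose to between 0.0532 and 0.128 when replicate 4 or 5 at 0% RPS, or replicate 1, 2 or 3 at 5% RPS, was left out. In those fits the Zbp1 log2 fold change was 0.90 to 1.12.

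At 10% RPS Zbp1 and Ripk3 were called, 2 of 5 genes where 0.536% of all genes were called higher. Zbp1 was 2.07-fold higher (log2 fold change 1.05, SE 0.29, adjusted p = 0.0138 in DESeq2). Ripk3 was 1.51-fold higher (log2 fold change 0.59, SE 0.15, adjusted p = 0.00821 in DESeq2), a size that barely cleared the fold threshold. Without the fold threshold the same 2 genes passed, beside 2.76% of all genes. Casp8 had an estimate of 1.29-fold (95% interval 1.09 to 1.52) and just missed the adjusted p (0.0525). Mlkl had an estimate of 1.27-fold (95% interval 1.03 to 1.56, adjusted p = 0.185 in DESeq2), and Ripk1 one of 1.07-fold (95% interval 0.985 to 1.16, adjusted p = 0.369 in DESeq2). The Ripk1 interval left out changes of 1.2-fold or more in either direction.

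Neither call at 10% RPS held in every fit. The edgeR test gave adjusted p of 0.0789 for Zbp1 and 0.0599 for Ripk3 and called neither. Zbp1 missed the threshold without replicate 5 at 0% RPS or without replicate 3 or 5 at 10% RPS (adjusted p of 0.0532, 0.0589 and 0.0639 in DESeq2). Ripk3 lost its call without replicate 4 at 0% RPS, where its log2 fold change fell to 0.57, and without replicate 5 at 0% RPS or replicate 5 at 10% RPS (adjusted p of 0.0532 and 0.0679 in DESeq2).

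Ripk3 was also the 1 gene of the 5 whose 10% libraries all lay above the highest 0% library, which was the case for 1.37% of the 12348 genes whose mean normalised count was 10 or more. At 5% RPS none of the 5 genes had this, beside 1.47% of all such genes. The count at 10% RPS went from 1 to 3 without replicate 3 at 0% RPS, which held the highest control values of Mlkl and Casp8. It was 2 without replicate 1 at 10% RPS, when Zbp1 joined, and 2 without replicate 4 at 10% RPS, when Casp8 joined. At 5% RPS Zbp1 alone joined without replicate 2 at 0% RPS or replicate 4 at 5% RPS. With fewer libraries any gene meets this criterion more easily. The shares of all genes above were taken with 5 libraries per diet and do not apply to these smaller sets.

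**Figure D3:**
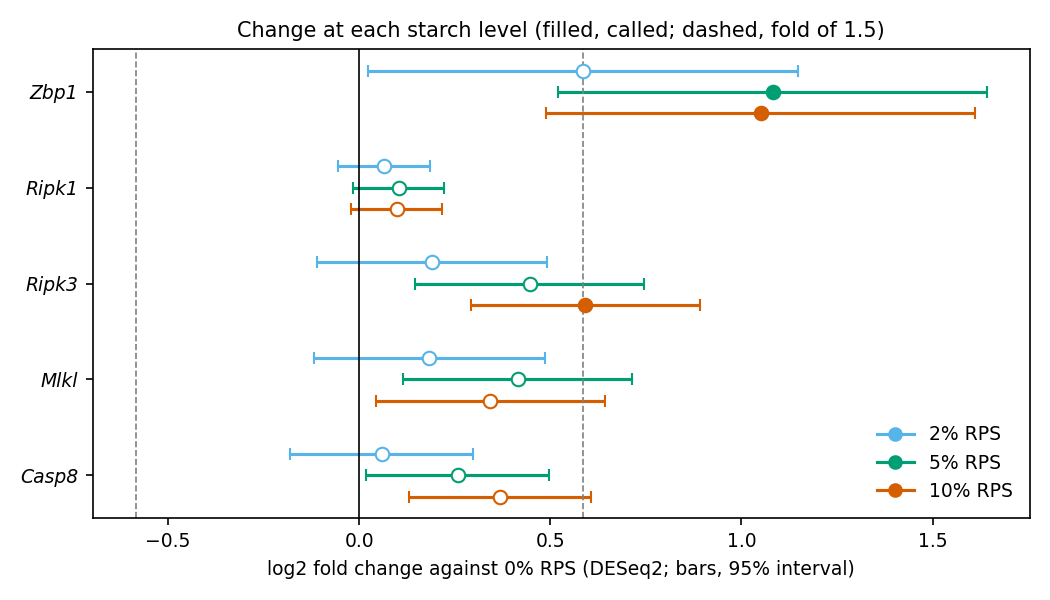
DESeq2 log2 fold changes of the 5 genes at 2, 5 and 10% RPS against 0% RPS (n = 5 per diet) with 95% intervals. Filled points were called (Zbp1 at 5 and 10% RPS, Ripk3 at 10% RPS) and dashed lines mark a fold change of 1.5. The Zbp1 intervals are the widest and the Ripk1 intervals the narrowest.

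Across the diets, the slope on the percentage of RPS was positive for all 5 genes and passed an adjusted p of 0.05 for 3 of them, beside 2.40% of all genes that passed with a positive slope. The DESeq2 slopes were 0.0583 log2 units per 1% RPS for Ripk3 (SE 0.0141, adjusted p = 0.00420), 0.0971 for Zbp1 (SE 0.0287, adjusted p = 0.0269) and 0.0384 for Casp8 (SE 0.0111, adjusted p = 0.0221). Those of Mlkl (0.0331, adjusted p = 0.187 in DESeq2) and Ripk1 (0.0087, adjusted p = 0.403 in DESeq2) did not pass. In edgeR Ripk3 alone passed (adjusted p = 0.0421), and without replicate 5 at 10% RPS it missed in DESeq2 (adjusted p = 0.0520). The Zbp1 slope missed without any 1 of replicates 1, 4 and 5 at 0% RPS or replicates 3, 4 and 5 at 10% RPS (adjusted p from 0.0610 to 0.0837 in DESeq2), and that of Casp8 without replicate 4 or 5 at 0% RPS or replicate 5 at 10% RPS (adjusted p from 0.0639 to 0.117 in DESeq2).

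The order of the diet means was not the same for each gene. Ripk3 and Casp8 had their highest mean at 10% RPS, and Zbp1, Mlkl and Ripk1 at 5% RPS. None of the 5 genes passed in any contrast between 2, 5 and 10% RPS in DESeq2 or edgeR, while 2 of them, Ripk3 and Casp8, had an unadjusted p under 0.05 from 2 to 10% RPS (4.85% of all genes were higher by that measure) and none in the other contrasts. From 5 to 10% RPS the Zbp1 ratio was 0.979 (95% interval 0.665 to 1.44) and the Ripk3 ratio 1.11 (95% interval 0.899 to 1.36), both with an adjusted p of 1.0 in DESeq2. From 2 to 10% RPS the estimates were 1.32-fold for Ripk3 (adjusted p = 0.342 in DESeq2), 1.24-fold for Casp8 (adjusted p = 0.371) and 1.38-fold for Zbp1 (adjusted p = 0.667). No pair of neighbouring diets in the order of any of the 5 genes passed the test. With the 0% libraries left out, no slope over 2, 5 and 10% RPS passed for any of the 5 genes.

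Some libraries stood apart. The label numbers of replicate 5 at 2% RPS and of replicates 4 and 5 at 10% RPS fall outside the run of the other 17, which the labels do not call a batch. Replicate 5 at 2% RPS had the highest Zbp1, Ripk3 and Mlkl of its diet. Replicate 4 at 10% RPS had the highest Zbp1 of its diet, and replicate 5 at 10% RPS the highest Ripk3, Mlkl and Casp8. Without these 3 libraries neither Zbp1 nor Ripk3 was called at 10% RPS, and the calls over all genes fell from 113 to 67. The log2 fold change was then 0.80 for Zbp1 (adjusted p = 0.162 in DESeq2) and 0.50 for Ripk3 (adjusted p = 0.0796 in DESeq2), and in the trend Ripk3 alone passed. No 0% or 5% library was of this kind, and the log2 fold change of Zbp1 at 5% RPS was 1.08 in this fit (adjusted p = 0.00664 in DESeq2).

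Replicate 2 at 0% RPS was the farthest from its own diet over all genes, with a mean distance of 63.8 against 35.1 to 48.3 for the other 19 libraries. It had the lowest Mlkl and the highest Zbp1 of the controls. Without it the same 1, 2 and 3 genes passed at 5% RPS, at 10% RPS and in the trend, and the Zbp1 log2 fold changes were 1.19 (adjusted p = 0.00746 in DESeq2) and 1.16 (adjusted p = 0.00465 in DESeq2).

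The samples were bulk tissue, in which fewer cells of a type and less RNA per cell cannot be told apart. All 6 epithelial markers examined had higher estimates at 5 and 10% RPS. Of these, Krt20, a keratin of mature surface epithelium, passed at both levels (log2 fold changes 0.45 and 0.47, adjusted p = 0.0476 and 0.0193 in DESeq2), and Epcam passed at 10% RPS (0.19, adjusted p = 0.00666). In edgeR neither passed (adjusted p = 0.146 and 0.0800 for Krt20, 0.0950 for Epcam). The summed level of the 6 markers was 275140 to 339720 normalised counts at 0%, 289020 to 398960 at 2%, 330160 to 350280 at 5% and 296520 to 389990 at 10% RPS, and none was at 0. All 5 macrophage markers and all 5 smooth muscle markers had lower estimates at both levels and none passed. Markers of T cells and of neutrophils were not analysed here.

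With the epithelial score as a covariate, which was added after these values were seen, none of the 5 genes passed at 5 or 10% RPS. The Zbp1 log2 fold changes were then 0.94 at 5% and 0.88 at 10% RPS (adjusted p = 0.420 and 0.412 in DESeq2), and that of Ripk3 at 10% RPS was 0.36 (adjusted p = 0.543). The same fit also cut the calls over all genes from 55 to 5 at 5% RPS and from 113 to 23 at 10% RPS. Whether more epithelium in the segments entered the Zbp1 and Ripk3 values was not tested.

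The rest of the pathway was followed in 7 lists of 71 genes, of which 68 were in the table. Tnf, Fasl and Il1a, the ligands and alarmin missing from it, were not analysed here. None of the 68 was called at 2, 5 or 10% RPS, in DESeq2 or in edgeR. Among all genes 0.0239, 0.334 and 0.536% were called higher in DESeq2 at these levels. Finding none among 68 genes lies near these shares and does not show that the lists were unchanged. At an unadjusted p under 0.05 there were 9 higher and 1 lower at 2% RPS. There were 12 higher and 2 lower at 5%, and 16 higher and 1 lower at 10% RPS. Among all genes the same measure held for 5.26, 9.23 and 10.1% higher and for 3.44, 7.39 and 8.76% lower at 2, 5 and 10% RPS. The median log2 fold change over the 68 genes was 0.05 at 5% and 0.06 at 10% RPS, against 0.42 and 0.37 for the 5 core genes and -0.0091 and 0.00 for all genes. The lists and the core genes were set with earlier results of these data known, so these medians only describe them.

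Interferon signalling lies upstream of Zbp1. None of its 11 genes passed at any level. At 10% RPS 9 of the 11 had higher estimates. At an unadjusted p under 0.05 there were 3 higher and 0 lower in DESeq2, beside 10.1 and 8.76% of all genes. These are mRNA levels, and signalling itself was not measured. Irf1, an interferon-induced transcription factor, had the smallest p of the list, with 3696 ± 256 normalised counts at 0% and 4499 ± 532 at 10% RPS (SD, n = 5; log2 fold change 0.28, adjusted p = 0.0857 in DESeq2), and 4 of its 5 libraries at 10% RPS lay above all controls. Ifnar1, a chain of the type I interferon receptor, had 0.05 (adjusted p = 0.696 in DESeq2).

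Of the death ligands, receptors and adaptors, 10 of 12 were in the table and none passed. Tlr3, a receptor for double-stranded RNA that reaches RIPK3 through the adaptor TRIF, had the smallest p at 10% RPS (log2 fold change 0.24, adjusted p = 0.188 in DESeq2). Ticam1, which encodes TRIF, had 0.04 (adjusted p = 0.836), Tnfrsf1a, the main receptor of tumour necrosis factor, 0.09 (adjusted p = 0.589), and Fadd, the adaptor that brings in caspase-8, -0.07 (adjusted p = 0.746), all in DESeq2.

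Of the 19 genes that ubiquitinate, deubiquitinate or phosphorylate RIPK1 or act beside it, none was called. Tab2, an adaptor of the kinase TAK1, rose in the trend (slope 0.0170, adjusted p = 0.00161 in DESeq2, 0.0453 in edgeR), and passed at 10% RPS when no fold was asked for (log2 fold change 0.17, adjusted p = 0.00655 in DESeq2). Chuk, the kinase IKK-alpha, also rose in the DESeq2 trend (slope 0.0198, adjusted p = 0.0449) but not in edgeR (adjusted p = 0.104). Of all genes, 2.4% rose in the DESeq2 trend and 2.76% passed higher at 10% RPS without the fold threshold. Chuk was named after its values were seen. Cyld and Tnfaip3, deubiquitinases that edit the RIPK1 complex, had log2 fold changes of 0.03 (adjusted p = 0.849 in DESeq2) and 0.05 (adjusted p = 0.869 in DESeq2) at 10% RPS.

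None of the 4 brakes on Casp8, Zbp1 and Ripk3 passed. Adar, whose product edits double-stranded RNA and limits the ligands of ZBP1, had 1339 ± 103 normalised counts at 0% RPS and 1319 ± 119 at 10% RPS (SD, n = 5; log2 fold change -0.02, adjusted p = 0.895 in DESeq2). Cflar, which encodes the caspase-8 partner cFLIP, had 0.00 (adjusted p = 0.988 in DESeq2). Stub1, a ubiquitin ligase that marks RIPK3 for breakdown, had the smallest p of the list (0.20, adjusted p = 0.137 in DESeq2). Among the 12 ESCRT-III genes, which repair membrane broken by MLKL, Chmp3 came closest at 10% RPS (0.13, adjusted p = 0.0539 in DESeq2) and none passed.

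Downstream of caspase-8, none of the 10 apoptosis genes was called, and some passed an adjusted p of 0.05 at a smaller fold in DESeq2. Of all genes, 1.33% at 5% and 2.76% at 10% RPS passed higher without the fold threshold, and 2.4% rose in the trend. Cycs, cytochrome c, passed at both levels (log2 fold changes 0.50 and 0.51, adjusted p = 0.0270 and 0.0117) and in the trend (slope 0.0445, adjusted p = 0.0418). Without replicate 3 at 0% RPS it was called at 10% RPS (0.59, adjusted p = 0.00259 in DESeq2). Bak1, a pore former of the mitochondrial outer membrane, passed at 5% RPS (0.38, adjusted p = 0.0138 in DESeq2). In edgeR neither of these genes passed. Tab2 and Bid, the substrate that carries the caspase-8 signal to mitochondria, were among the 3 of 68 genes whose 10% libraries all lay above the controls (1.37% of all genes), and Bid was the 1 of 68 at 5% RPS (1.47% of all genes). Bak1 and Bid were named after their values were seen. Il33 and Hmgb1, alarmins of dying cells, had log2 fold changes of -0.02 (adjusted p = 0.966 in DESeq2) and -0.04 (adjusted p = 0.857 in DESeq2) at 10% RPS.

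**Figure D4:**
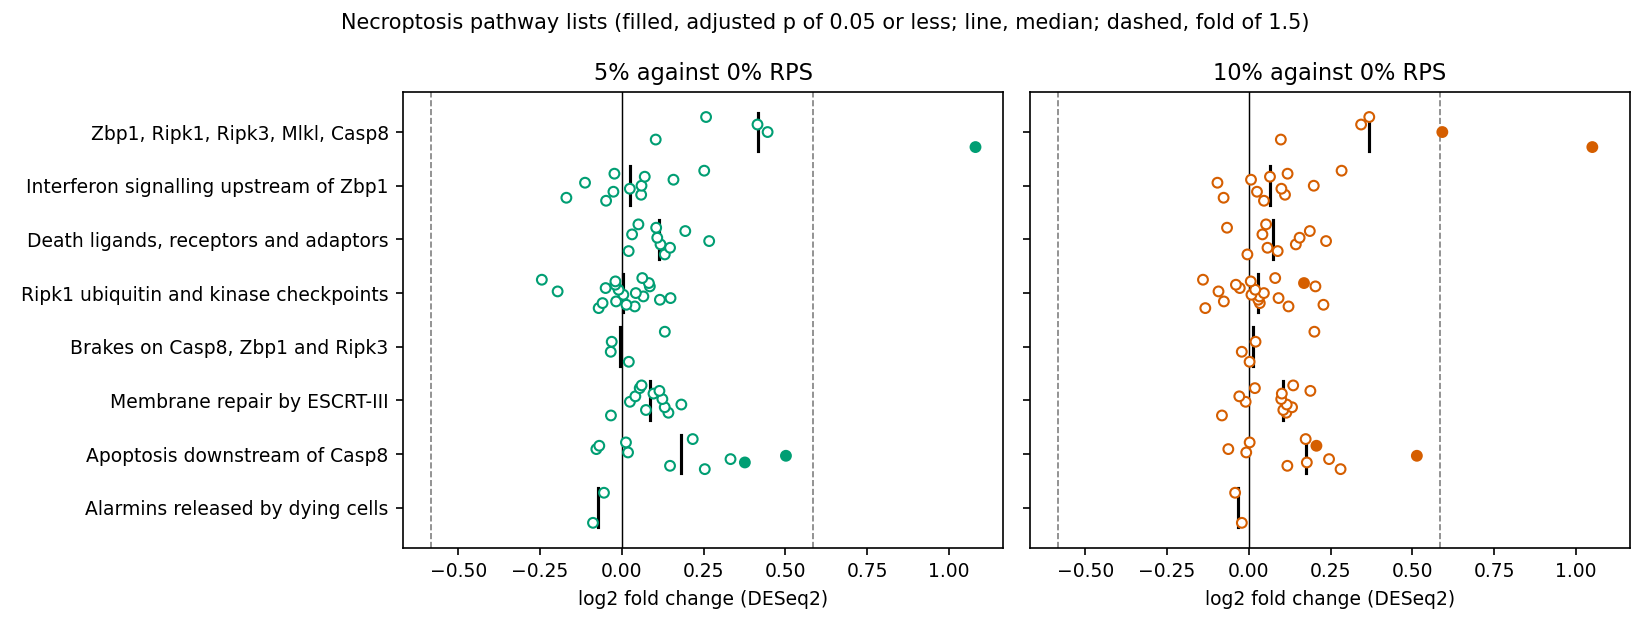
DESeq2 log2 fold changes at 5% and 10% against 0% RPS for the 5 core genes and the 68 other pathway genes by list. Each point is a gene, filled where the adjusted p was 0.05 or less. The short vertical line is the median of the list and dashed lines mark a fold change of 1.5. Zbp1 (1.08 and 1.05) lies farthest to the right, and no gene of the 7 lists passes the dashed line.

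Whether mice with more Zbp1 mRNA also had more of the other core transcripts was asked over the 20 libraries, on log2(normalised count + 1), with two-sided permutation tests adjusted over the 4 pairs. The correlation was r = 0.739 (adjusted p = 0.00088) and rho = 0.746 (adjusted p = 0.00046) with Ripk3, and r = 0.680 (adjusted p = 0.00196) and rho = 0.789 (adjusted p = 0.00044) with Mlkl by permutation. It was r = 0.505 (permutation p adjusted to 0.0314) and rho = 0.475 (adjusted p = 0.0476) with Casp8. With Ripk1 it was r = 0.180 and rho = 0.211 (adjusted p = 0.445 and 0.370 by permutation). The unadjusted permutation p of r were 0.00022, 0.00098, 0.0236 and 0.445 in that order, and those of rho 0.00023, 0.00011, 0.0357 and 0.370.

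Part of each relation lay between diets. When the diet means were removed, r was 0.539 for Ripk3 and 0.478 for Mlkl (permutation p within diets 0.0332 and 0.0498, both adjusted to 0.0995), 0.182 for Casp8 and -0.212 for Ripk1 (both adjusted to 0.474). The relation of Zbp1 with Ripk3 and Mlkl thus did not pass within diets. Without the 2 libraries farthest from the Zbp1 median, replicate 1 at 0% RPS and replicate 3 at 5% RPS, r over all diets was 0.807 for Ripk3, 0.713 for Mlkl, 0.508 for Casp8 and 0.299 for Ripk1. When 1 library was left out the relations with Ripk3 and Mlkl still passed each time. The Casp8 relation missed without replicate 5 at 0%, replicate 4 at 2%, replicate 2 or 3 at 5% or replicate 5 at 10% RPS (r from 0.444 to 0.476, permutation p adjusted to between 0.0532 and 0.0763).

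**Figure D5:**
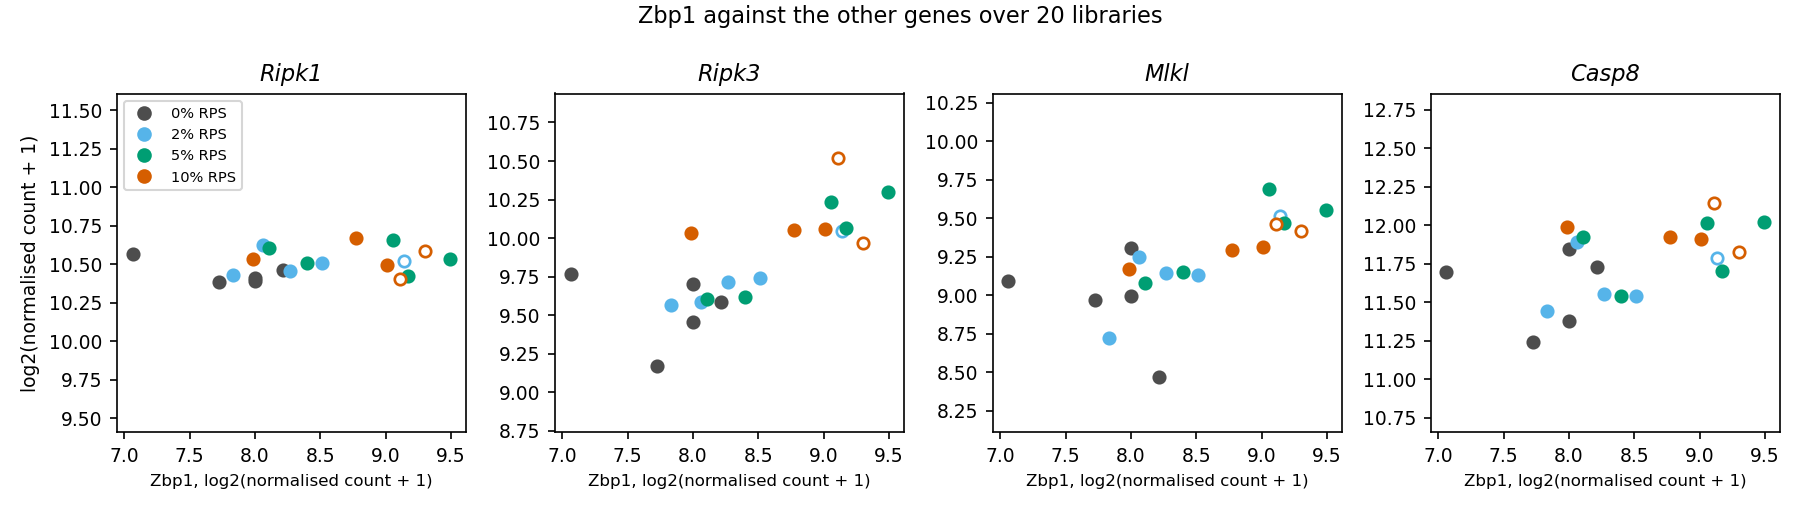
Zbp1 against Ripk1, Ripk3, Mlkl and Casp8 in the 20 PC libraries, both axes log2(normalised count + 1), with y axes of equal span. Colours mark the diets and open points the 3 libraries whose label numbers fall outside the run. Pearson r over all libraries was 0.180, 0.739, 0.680 and 0.505.

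These correlations stood within a wide field. Ranked by r to Zbp1 among 12347 genes, Ripk3 came at 213, Mlkl at 415, Casp8 at 1384 and Ripk1 at 4211. Among the genes most like Zbp1 were Dcp2, an mRNA decapping enzyme (r = 0.905), Yipf6, a Golgi membrane protein (r = 0.895), Lap3, a leucine aminopeptidase (r = 0.893), and Rrbp1, a ribosome-binding protein of the endoplasmic reticulum (r = 0.886). Dcp2 passed at 5 and 10% RPS without the fold threshold (log2 fold changes 0.50 and 0.47, adjusted p = 0.0243 and 0.0228 in DESeq2), and the other 3 did not pass at either level. The genes most like Mlkl were Ms4a8a, a membrane protein of the MS4A family (r = 0.910), Trim31, a ubiquitin ligase (r = 0.906), and Gda, a guanine deaminase (r = 0.886). Gda was called at both levels, with means of 2144, 3277, 5070 and 4953 normalised counts at 0, 2, 5 and 10% RPS (log2 fold changes 1.24 and 1.21, adjusted p = 0.000434 and 0.00035 in DESeq2). These likenesses are descriptions over 20 libraries that share diet, library scaling and tissue make-up, and carry no test.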

How the data were processed

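RNA from 1 cm of PC per mouse was sequenced by the authors from stranded mRNA libraries as single reads of 50 bases, mapped and counted per gene in CLC Genomics Workbench on GRCm39, and deposited as raw counts of 12701 genes in 20 libraries. The annotation, the use of strand, the treatment of reads with several matches and the filter on genes are not given in the sources used here. Per the methods, differential expression was tested with DESeq2. The labels name separate mice only by number, so p-values measure the spread between these libraries.

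Counts were fitted as deposited with DESeq2 1.42.0 in R 4.3.3, in a joint fit of the 20 libraries whose term was diet, and Benjamini-Hochberg adjustment over all genes. A second fit used the percentage of RPS as a number, with no fold threshold. Pearson and Spearman correlations used 100000 permutations and a pseudocount of 1. Adjusted p-values are those of DESeq2 unless edgeR or a permutation is named. Alternatives were the edgeR 4.0.16 quasi-likelihood test, TMM factors, a filter of at least 10 counts in at least 5 libraries, no independent filtering, only the diets compared, left-out libraries and marker scores as covariates. The scripts were tested on simulated data.

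All 5 core genes were counted well above 3 counts in every library (at least 121 for Zbp1). The share of counting error in the spread between mice was not measured. Of 12701 genes, 12682 matched GENCODE M39. The share of 50-base windows that also match another gene was 0% for Zbp1 and Ripk3. It was 4.07% for Ripk1 (Gm17084), 4.84% for Mlkl (Rps27a, Rps27a pseudogenes and Rpl7l1 among others) and 3.62% for Casp8 (Gm20257 and Gm70432). Such reads could be split, and reads of the other gene could be counted. Starts, ends and sequences come from GENCODE M39 on the GRCm39 genome.

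The core genes, lists and tests were chosen with earlier results of these data known. Named genes were the 5 core genes, 14 pathway genes named whatever they did, pathway genes called at 5 or 10% RPS, in a list with no call the gene with the smallest p at 10% RPS, and the 5 and 3 genes with the highest r to Zbp1 and Mlkl. A few genes that this rule names are not reported here.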

Additional observations from a re-analysis of the deposited data

Results flagged for a closer look

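The Ripk3 value of replicate 5 at 10% RPS, 1468 normalised counts, lay far from the other 4 libraries of its diet, which were at 1000 to 1065. Its gap to the nearest library, divided by the range of the group, exceeded the 95% critical value of Dixon's test. It was 1 flag in 20 groups of 5 libraries tested, and chance flags about 1 in 20. This library also held the highest Mlkl and Casp8 of its diet. Without it the Ripk3 log2 fold change at 10% RPS was 0.48 (adjusted p = 0.0679 in DESeq2), and its slope was 0.0487 (adjusted p = 0.0520 in DESeq2).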

How the results depend on the processing

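With 5 libraries per diet, Zbp1 had an SE of 0.29 on the log2 scale, which limited what could pass for it, while Ripk1 had an SE of 0.06. Of 177 results recomputed under other settings, 144 kept their direction and side of the threshold, 19 lost the threshold, 13 counts moved by more than 1.5 times and 1 changed sign. With 1 library left out these were 341, 26, 18 and 0 of 385. Smaller moves of a count are among those kept: in the trend Zbp1 was lost, 3 genes becoming 2, with the smooth muscle score and without replicate 1 at 0% RPS or replicate 3 or 4 at 10% RPS. TMM factors, the filter on low counts, no independent filtering and a fit of only the compared diets changed no call of the 5 genes. Unless stated otherwise, the cause of a change was not tested. No paired analysis was possible because the labels give no replicate numbers that the diets share.

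In edgeR the number of core genes called was 0 at 5% RPS, 0 at 10% RPS and 1 in the trend (Ripk3). Its log2 fold changes were 1.08 (Zbp1, 5% RPS), 1.04 (Zbp1, 10% RPS) and 0.59 (Ripk3, 10% RPS), and its slopes that missed were 0.0956 for Zbp1 and 0.0381 for Casp8 (adjusted p from 0.0599 to 0.126). Over all genes edgeR called 7 at 5% RPS, 40 at 10% RPS and 165 in the trend, against 55, 113 and 538 in DESeq2. Without the 3 libraries outside the run of label numbers the calls were 0 at 10% RPS and 1 in the trend. Over all genes that fit called 67 at 10% RPS and 265 in the trend. The log2 fold changes were then 0.80 for Zbp1 and 0.50 for Ripk3 at 10% RPS, and the slopes 0.1002 for Zbp1 and 0.0389 for Casp8. In that set 2 genes had no overlap at 10% RPS, a criterion that any gene meets more easily with fewer libraries. With a smooth muscle score as covariate 1 gene, Zbp1, was called at 10% RPS. Ripk3 kept an adjusted p of 0.00985 there, but its log2 fold change of 0.58 fell under the fold threshold, and the Zbp1 slope was 0.0889 (adjusted p = 0.0859). With the epithelial score, added after seeing the data, 0 genes passed at 5% RPS, 10% RPS and in the trend, where DESeq2 gave no adjusted p to Zbp1 and Mlkl, with log2 fold changes of 0.94 (Zbp1, 5% RPS), 0.88 (Zbp1, 10% RPS) and 0.36 (Ripk3, 10% RPS) and slopes of 0.0767 for Zbp1 (untested), 0.0408 for Ripk3 and 0.0295 for Casp8. That trend fit adjusted p over 5996 genes, against 12545 without the score. Over 2, 5 and 10% RPS alone 0 slopes passed. Without the fold threshold 2 of the 68 pathway genes passed at 5% RPS and 3 at 10% RPS, all higher. Among all genes 1.33 and 2.76% passed higher by that measure. With diet means removed, r to Zbp1 was -0.212 for Ripk1, 0.539 for Ripk3, 0.478 for Mlkl and 0.182 for Casp8.

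With 1 library left out the number of core genes called ran from 0 to 1 at 5% RPS, 0 to 2 at 10% RPS and 0 to 3 in the trend. The log2 fold change of Zbp1 ran from 0.90 to 1.23 at 5% RPS and from 0.91 to 1.21 at 10% RPS, and that of Ripk3 at 10% RPS from 0.48 to 0.65. Slopes ran from 0.0830 to 0.118 for Zbp1, 0.0487 to 0.0635 for Ripk3 and 0.0330 to 0.0430 for Casp8. Pathway genes called at 10% RPS numbered 0 to 1, and core genes with no overlap 0 to 1 at 5% RPS and 1 to 3 at 10% RPS. The counts with no overlap come from smaller sets, in which any gene meets that criterion more easily. The r of Zbp1 with Casp8 ran from 0.444 to 0.567.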
